A study of Homo sapiens with 6 samples.

Results

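The human mitochondrial genome carries a small fixed set of genes, and all of them were followed here in PC-3 cells with and without extra BHLHE22. Every row of the deposited table whose gene name begins with MT- was taken. These were 37 of 58302 genes: 13 mRNAs, 2 rRNAs and 22 tRNAs. All lie on chromosome MT, and no other row does. PC-3 is an established cell line that was grown from a prostate cancer metastasis in bone. According to the labels, the control cells (PC-3-Vector, 3 libraries) received an empty lentivirus. The other cells (PC-3-Bhlhe22, 3 libraries) received lentivirus for overexpression of BHLHE22, which is a transcription factor of the basic helix-loop-helix family. Both groups therefore went through viral transduction, and no further treatment, time point, promoter or clone is given in the labels. The labels do not tell whether replicates are separate cultures, so the p-values rest on a spread among libraries that could be purely technical. The design asks which genes differ between the vector and the BHLHE22 cells.

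Each strand of the circular mitochondrial genome is transcribed into a long RNA that spans many genes. The tRNAs lie between most of the mRNAs and rRNAs, and cutting the tRNAs out releases the RNAs on either side. Nearly all mRNAs and both rRNAs come from transcription of one strand, while MT-ND6 and a minority of the tRNAs come from the other. The mRNAs encode core subunits of respiratory complexes I, III and IV and of the ATP synthase (complex V). The remaining subunits of those complexes, and the whole machinery that copies, transcribes and processes mitochondrial DNA, are encoded in the nucleus. In GENCODE release 29 (GRCh38), 28 members are on the plus strand and 9 on the minus strand, the latter being MT-ND6 and 8 tRNAs. Whether strand was kept is not given in the sources used here. Without it, reads of MT-ND6, MT-TE or another minus-strand gene and of RNA copied from the opposite strand across it cannot be told apart.

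Total counts ranged from 12186723 to 15949537 per library. BHLHE22 itself had 1, 1 and 1 reads in the vector libraries and 98, 92 and 133 in the BHLHE22 libraries. Levels are given as CPM, which are counts relative to the scaled library size. The epithelial keratins KRT8, KRT18 and KRT19 were present in both groups, at 197, 152 and 801 CPM in vector cells. The summed level of 7 epithelial and PC-3 markers was 2103 to 2291 CPM in vector and 2969 to 2991 CPM in BHLHE22 libraries. The 7 did not move together: 3 were called higher (42.9%, against 25.1% of all tested genes), 2 lower (28.6%, against 24.3%) and 2 neither. Of the luminal prostate markers, KLK3 was at 0 in every library. TMPRSS2 was present at 161 ± 22 CPM in vector and 68.4 ± 6.6 CPM in BHLHE22 libraries and was called lower. The other luminal markers are not reported here, so these 2 do not give the direction of that list. For 6 fibroblast and endothelial markers the sum was 118 to 138 CPM against 67.0 to 75.9 CPM. Of 7 blood cell markers, 3 were at 0 in every library, and their summed level was 2.11 to 3.26 CPM in vector and 0.50 to 0.66 CPM in BHLHE22 libraries. RNAs that lack a poly(A) tail or stay in the nucleus (MALAT1, NEAT1, 7SL, histone and similar genes) were a further list. Of 11 tested, 5 (45.5%, against 24.3% of all tested genes) were lower and 0 higher in BHLHE22 cells by edgeR's quasi-likelihood test (1 higher at an unadjusted p under 0.05, 0 with DESeq2, 0 with limma-voom). Their summed level was 1051 to 1406 CPM in vector and 478 to 659 CPM in BHLHE22 libraries. Their part in the results on mitochondrial RNA was not tested.

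Mitochondrial mRNAs took a smaller share of the reads in BHLHE22 cells than in vector cells, and rRNAs a somewhat smaller one. The summed tRNAs, where 2 genes held most of the reads, did not follow. The mRNAs held 7.13%, 6.89% and 6.42% of all counts in vector libraries and 3.87%, 4.27% and 4.46% in BHLHE22 libraries, each in order of replicate 1 to 3. The groups did not overlap, and the mean share went from 6.81% ± 0.36 to 4.20% ± 0.30 (SD, n = 3 each). The rRNAs held 1.18%, 1.12% and 1.10% of counts in vector cells, against 1.06%, 0.93% and 0.73% in BHLHE22 cells. BHLHE22 replicate 1 was thus close to the vector libraries in rRNA while it was the lowest of all in mRNA. The tRNAs held 0.0131%, 0.0122% and 0.0119% in vector cells and 0.0149%, 0.0139% and 0.0124% in BHLHE22 cells, so the groups overlapped. On the scaled CPM level, the summed tRNAs were at 130 ± 8 CPM in vector cells, against 131 ± 12 CPM with BHLHE22. MT-TL1 and MT-TF together held 67.0% to 76.4% of all tRNA counts. Without these 2, a split chosen after their values were seen, the other 20 tRNAs summed to 45.4, 41.1 and 38.1 CPM in vector libraries and 33.3, 34.7 and 31.7 CPM in BHLHE22 libraries, with no overlap. Shares and CPM are relative to the other RNAs of the same library, and amounts per cell are not known. A fall of a mitochondrial RNA is therefore a fall relative to those other RNAs. In bulk RNA, fewer mitochondrial genomes per cell, less RNA per genome and more RNA from other genes cannot be told apart.

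**Figure D1:**
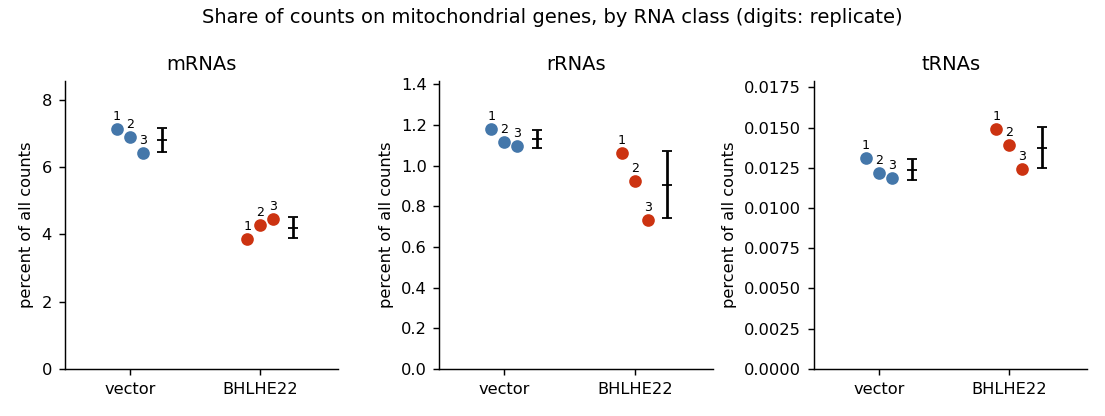
Share of all counts (percent, linear axes from 0) that fell on the 13 mRNAs, 2 rRNAs and 22 tRNAs of mitochondrial DNA in each library; each point is a library with its replicate number, and the bar is the mean ± SD (n = 3). The mRNA shares of the groups are far apart (3.87% to 4.46% against 6.42% to 7.13%), the rRNA shares come close to each other, and the tRNA shares overlap.

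Of the 37 genes, 30 passed the filter on low counts: every mRNA, both rRNAs and 15 tRNAs. Of these, 14 were called lower and 1 higher in BHLHE22 cells at an adjusted p under 0.05. Over all 15945 tested genes, 24.3% were called lower and 25.1% higher. All 14 lower genes were mRNAs or rRNAs, namely 12 of 13 mRNAs and 2 of 2 rRNAs, and the gene called higher was a tRNA. The median log2 fold change was -0.89 for the mRNAs, -0.51 for the rRNAs and -0.37 for the tested tRNAs, against 0.00 for all tested genes. The groups did not overlap for 12 of the 13 mRNAs, where 60.5% of all tested genes did not overlap. With unscaled library sizes, which shift the typical gene by 0.15 on the log2 scale, the same number of mRNAs was called lower.

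**Figure D2:**
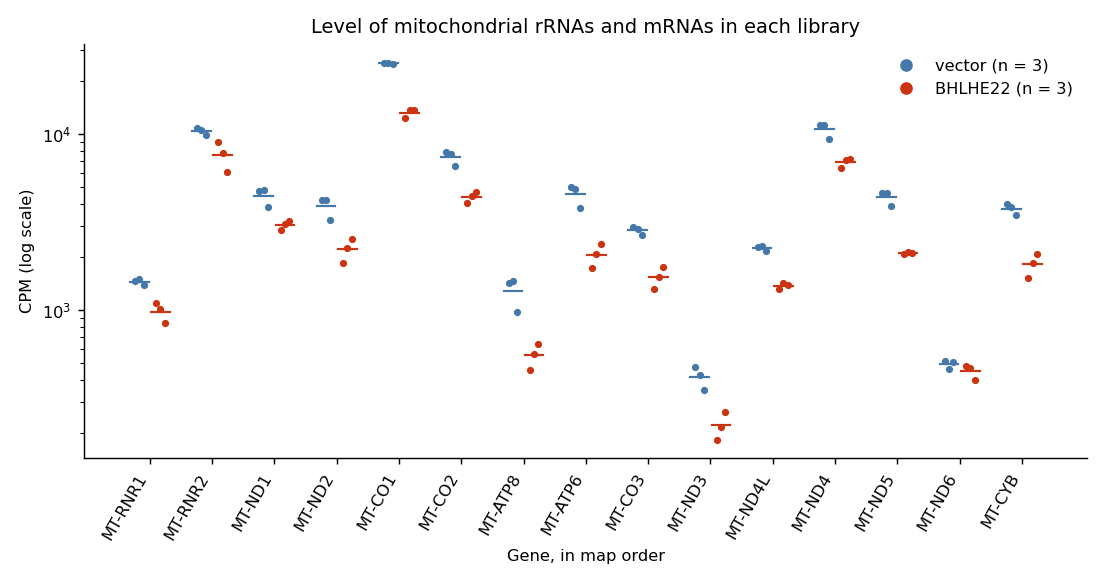
Level of each mitochondrial rRNA and mRNA (CPM, log axis) in every library, in map order; points are libraries and lines the mean of each group (n = 3). The BHLHE22 points lie under the vector points for every gene except MT-ND6, where they mix.

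All 3 complex IV mRNAs fell. MT-CO1 encodes the catalytic subunit of cytochrome c oxidase. Its level was 25319, 25510 and 25049 CPM in the vector libraries and 12416, 13727 and 13657 CPM in the BHLHE22 libraries. The 3 libraries of each group were tight and far from the other group, a fall to 52.5% of the vector level (log2 fold change -0.93, SE 0.07, adjusted p = 0.000149). MT-CO2, the subunit that takes electrons from cytochrome c, stood at 7950, 7710 and 6565 CPM against 4058, 4451 and 4667 CPM (log2 fold change -0.75, SE 0.10). MT-CO3, a structural core subunit, stood at 2975, 2873 and 2660 CPM against 1311, 1545 and 1743 CPM (log2 fold change -0.89, SE 0.11). Adjusted p-values were 0.000825 and 0.000727. Vector replicate 3 was the lowest vector library for each of these mRNAs, yet it was above the highest BHLHE22 library.

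The complex V mRNAs had the largest falls of the 13. MT-ATP6 encodes the membrane subunit that forms the proton path of ATP synthase, and MT-ATP8 a short accessory subunit. The pair sits on a shared RNA and their coding parts overlap by 46 bases, at positions 8527 to 8572 on the plus strand of chromosome MT in GRCh38. The overlap is shown because a read inside it cannot be given to either gene alone; capitals mark the start codon of MT-ATP6 and the stop codon of MT-ATP8.
MT-ATP8/MT-ATP6 overlap: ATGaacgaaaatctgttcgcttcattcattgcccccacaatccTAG
MT-ATP6 stood at 4978, 4897 and 3817 CPM in vector cells and 1734, 2068 and 2365 CPM in BHLHE22 cells. MT-ATP8 stood at 1425, 1460 and 970 CPM against 456, 557 and 638 CPM. Vector replicate 3 was well under the other vector libraries for both genes, but above every BHLHE22 library. The falls were 2.22-fold for MT-ATP6 (log2 fold change -1.15, SE 0.14, adjusted p = 0.000716) and 2.33-fold for MT-ATP8 (log2 fold change -1.22, SE 0.19, adjusted p = 0.00220). Per length, MT-ATP8 stood at 94.2%, 98.1% and 83.6% of the MT-ATP6 FPKM in vector cells and at 86.5%, 88.6% and 88.8% in BHLHE22 cells, with overlap between the groups.

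The single complex III mRNA and most of the complex I mRNAs fell as well, and the latter spanned a wide range. MT-CYB, which encodes cytochrome b, the catalytic membrane subunit of complex III, stood at 3986, 3855 and 3457 CPM in vector and 1520, 1847 and 2086 CPM in BHLHE22 libraries. That is a 2.07-fold fall (log2 fold change -1.05, SE 0.12, adjusted p = 0.000552). MT-ND5, a proton-pumping subunit at the far end of the complex I membrane arm, had its BHLHE22 libraries at 2078, 2129 and 2097 CPM, the narrowest spread of any mRNA. Its vector libraries held 4630, 4651 and 3923 CPM (log2 fold change -1.07, SE 0.09, adjusted p = 0.000156). MT-ND3 and MT-ND2, further membrane subunits, followed with log2 fold changes of -0.92 (SE 0.16) and -0.82 (SE 0.14). MT-ND4 and MT-ND4L share an RNA and a 7-base overlap, and their changes were close to each other, -0.62 (SE 0.10) and -0.71 (SE 0.07).

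MT-ND1, the membrane subunit next to the quinone site, changed least among the mRNAs that were called. It stood at 4723, 4817 and 3836 CPM in vector cells and 2860, 3081 and 3187 CPM in BHLHE22 cells (log2 fold change -0.55, SE 0.10, adjusted p = 0.00376). Its place on the map is directly after the rRNA genes, with MT-TL1 and 2 further bases between MT-RNR2 and MT-ND1. Along the 12 plus-strand mRNAs, Spearman's rho of the fold change with the start position was -0.23 and Pearson's r -0.38, across genes that share libraries. Spearman's rho was 0.08 with transcript length and 0.31 with GC content. With 12 genes, these values cannot tell a weak relation from none or from a stronger one.

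MT-ND6, the only mRNA on the minus strand and a membrane subunit of complex I, was not called. Its level was 512, 460 and 501 CPM in vector libraries and 477, 468 and 399 CPM in BHLHE22 libraries. The groups overlapped, and the log2 fold change was -0.13 (SE 0.09, adjusted p = 0.266). MT-ND5 is its direct neighbour on the other strand, with no base between them, and these neighbours differ in base composition as printed on their own strands: G makes up 35.6% of MT-ND6 and 10.6% of MT-ND5. Reads on MT-ND6 came to 11.1%, 9.89% and 12.8% of those on MT-ND5 in vector libraries and to 22.9%, 21.97% and 19.0% in BHLHE22 libraries. The lowest BHLHE22 ratio was above the highest vector ratio.

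**Figure D3:**
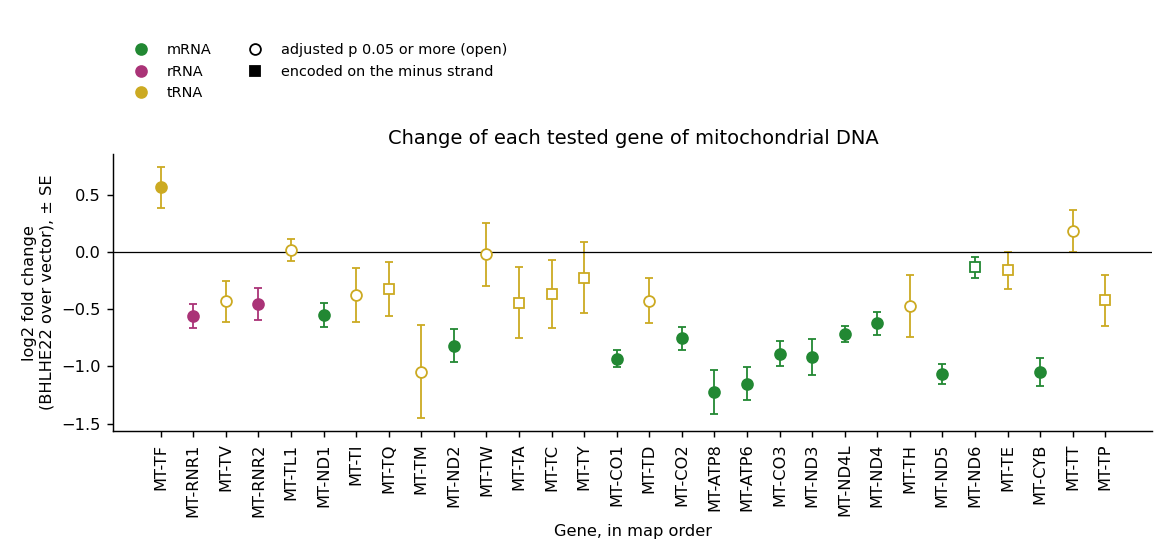
Log2 fold change (BHLHE22 over vector) ± SE from edgeR's quasi-likelihood fit for the 30 tested genes in map order. Filled marks have an adjusted p under 0.05, squares are genes on the minus strand, and colours give the RNA class. The 12 plus-strand mRNAs lie between -1.22 and -0.55, MT-ND6 is near 0, and MT-TF is the only filled mark above 0.

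Both rRNAs fell, by less than most of the mRNAs. MT-RNR1 encodes the rRNA of the small mitochondrial ribosomal subunit and stood at 1457, 1489 and 1384 CPM in vector and 1091, 1005 and 838 CPM in BHLHE22 libraries (log2 fold change -0.56, SE 0.10, adjusted p = 0.00360). MT-RNR2 encodes that of the large subunit and stood at 10917, 10608 and 9852 CPM against 8997, 7836 and 6090 CPM (log2 fold change -0.45, SE 0.14, adjusted p = 0.0273). The groups did not overlap for either, and BHLHE22 replicate 3 was the lowest library for both. The call of MT-RNR2 ended without vector replicate 1, vector replicate 2 or BHLHE22 replicate 2 (adjusted p = 0.0845, 0.0732 and 0.0687) and with unscaled library sizes (0.0909). Counts on rRNA came to 16.6%, 16.2% and 17.1% of the mRNA counts in vector libraries, and to 27.5%, 21.6% and 16.4% in BHLHE22 libraries. BHLHE22 replicate 3 lay within the vector range, so this ratio did not separate the groups.

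In reads per length, the leading 3 RNAs were the same in both groups. How far library preparation kept rRNAs relative to mRNAs was not tested, so an order across these classes is an order of reads. In the authors' FPKM, which divide by gene length, MT-CO1 led in vector cells with 15592 ± 281, followed by MT-CO2 with 10285 ± 873. MT-ND4 (7333 ± 640) and MT-ND4L (7206 ± 103) came next and did not differ beyond their spread. Neither did the following 3, MT-RNR2 (6375 ± 271), MT-ATP6 (6359 ± 794) and MT-ATP8 (5882 ± 1140). In BHLHE22 cells MT-ATP6 (3176 ± 493) and MT-ATP8 (2798 ± 468) stood under MT-ND1 (3349 ± 186), with the spreads of MT-ATP6 and MT-ND1 overlapping. MT-ND3 and MT-ND6 were the lowest mRNAs in both groups. MT-ND6 was at 890 ± 70 FPKM in vector and 898 ± 83 FPKM in BHLHE22 cells (SD, n = 3 throughout). MT-RNR1 was at 21.8% to 23.0% of the MT-RNR2 FPKM in vector libraries and 19.8% to 22.5% in BHLHE22 libraries.

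The tRNA genes are 59 to 75 bases long, and several abut longer genes with no base between them. Reads on them can come from RNA that was not yet cut, or reach over from a neighbour, which was not tested. A tRNA level here is therefore a level of reads on the gene. Among the 15 tested tRNAs, MT-TF rose, and 12 had a log2 fold change under 0 without being called. By edgeR, 0 were called lower (2 at an unadjusted p under 0.05, 0 with DESeq2, 0 with limma-voom). The sequences of 4 are shown because they are the tRNAs whose gain against the mitochondrial mRNAs, described further on, was called under every alternative run. They are the GENCODE 29 transcripts (GRCh38, chromosome MT), written 5′ to 3′ on their own strand as DNA, with the anticodon in capitals. MT-TF (tRNA for phenylalanine, positions 577 to 647), MT-TL1 (leucine, 3230 to 3304) and MT-TT (threonine, 15888 to 15953) are on the plus strand, and MT-TE (glutamic acid, 14674 to 14742) is on the minus strand.
MT-TF: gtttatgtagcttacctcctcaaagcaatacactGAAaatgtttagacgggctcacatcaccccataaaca
MT-TL1: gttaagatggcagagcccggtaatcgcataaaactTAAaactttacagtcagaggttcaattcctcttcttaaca
MT-TT: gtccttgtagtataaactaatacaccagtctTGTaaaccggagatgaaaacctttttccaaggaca
MT-TE: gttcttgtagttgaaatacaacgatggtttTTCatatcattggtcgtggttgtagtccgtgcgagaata

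MT-TF is the first gene of the plus-strand transcript and abuts MT-RNR1 with no base between them. Its counts were 198, 243 and 253 in vector and 366, 367 and 304 in BHLHE22 libraries, or 14.9, 16.5 and 17.8 CPM against 28.5, 26.3 and 18.2 CPM. The groups did not overlap, though BHLHE22 replicate 3 was barely above the highest vector library (log2 fold change 0.57, SE 0.18, adjusted p = 0.0319). The call ended without vector replicate 1 (adjusted p = 0.0991), vector replicate 2 (0.0740), BHLHE22 replicate 1 (0.0916) or BHLHE22 replicate 2 (0.0914). Reads on MT-TF came to 1.03%, 1.11% and 1.29% of those on MT-RNR1 in vector cells and to 2.61%, 2.62% and 2.17% in BHLHE22 cells, with no overlap. The gene and its direct neighbour thus moved apart in every BHLHE22 library.

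MT-TL1, which directly follows MT-RNR2, had the most reads of the tRNA genes. It had 77.0, 73.9 and 65.8 CPM in vector and 79.7, 72.1 and 67.8 CPM in BHLHE22 libraries, and the groups overlapped (log2 fold change 0.02, SE 0.10, adjusted p = 0.890). MT-TT had 46, 49 and 55 reads in vector and 43, 58 and 77 in BHLHE22 libraries (log2 fold change 0.19, SE 0.18, adjusted p = 0.424). MT-TE had 99, 86 and 103 against 78, 96 and 91 reads (log2 fold change -0.16, SE 0.16, adjusted p = 0.449). MT-TV, which lies between the rRNA genes, had 13.2, 12.6 and 9.84 CPM against 10.2, 9.02 and 7.25 CPM, with overlap. Its log2 fold change of -0.43 (SE 0.18, adjusted p = 0.0762) was near those of its rRNA neighbours, and it was called lower without vector replicate 3 (0.0430).

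The remaining 10 tested tRNAs had few reads, at most 39 in a library, and none was called. MT-TM, which directly precedes MT-ND2, had the most negative value (log2 fold change -1.05, SE 0.41, adjusted p = 0.0658), from 16, 23 and 11 reads against 4, 8 and 13. Its adjusted p was 0.0405 without vector replicate 3. The others, MT-TI, MT-TQ, MT-TW, MT-TA, MT-TC, MT-TY, MT-TD, MT-TH and MT-TP, had log2 fold changes between -0.47 and -0.02, with standard errors of 0.20 to 0.31, against 0.07 to 0.19 for the mRNAs. The 7 tRNAs that did not pass the filter, MT-TN, MT-TS1, MT-TK, MT-TG, MT-TR, MT-TS2 and MT-TL2, had 15 to 51 reads each over the 6 libraries and at most 15 in any of them.

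Differences among the members were tested in a fit in which the library size was the summed count of the 13 mRNAs. A positive value there means a gain against the mitochondrial mRNA pool, whatever the nuclear RNAs did. In this fit 7 members were called higher and 2 lower, while over all tested genes 70.1% were higher and 4.14% lower, since most nuclear RNAs gained against that pool. MT-TF had the largest gain (log2 fold change 1.42, SE 0.23, adjusted p = 0.000262), then MT-TT (1.02, SE 0.21, adjusted p = 0.00137), MT-TL1 (0.87, SE 0.14, adjusted p = 0.000235) and MT-TW (0.82, SE 0.29, adjusted p = 0.0244). Gains of 0.72 for MT-ND6 (SE 0.14, adjusted p = 0.00104) and 0.68 for MT-TE (SE 0.20, adjusted p = 0.0117), its minus-strand neighbour, were also called. MT-ND1 was the only plus-strand mRNA called higher against the pool (0.30, SE 0.10, adjusted p = 0.0227).

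The losses against the pool were those of MT-ATP8 (log2 fold change -0.37, SE 0.14, adjusted p = 0.0306) and MT-ATP6 (-0.31, SE 0.12, adjusted p = 0.0335). MT-ATP6 made up 6.66%, 6.57% and 5.79% of the pool in vector libraries and 4.72%, 5.06% and 5.60% in BHLHE22 libraries. The nearest pair of these libraries, vector replicate 3 and BHLHE22 replicate 3, thus differed little. Leaving out vector replicate 1 or 2, or BHLHE22 replicate 1 or 2, ended both calls, with adjusted p-values of 0.0801 to 0.117. The calls of MT-TF, MT-TT, MT-TL1, MT-ND6 and MT-TE held without each library. That of MT-ND1 ended without vector replicate 1 (0.0552) or BHLHE22 replicate 2 (0.0838) and when MT-CO1 was left out of the pool (0.0989). That of MT-TW ended on leaving out replicate 2 or 3 of vector or replicate 1 or 2 of BHLHE22, with adjusted p-values of 0.0634 to 0.0847, and with DESeq2 (0.111).

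The rRNAs were not called against the pool. Their log2 fold changes were 0.29 for MT-RNR1 (SE 0.15, adjusted p = 0.0898) and 0.41 for MT-RNR2 (SE 0.17, adjusted p = 0.0531). Both were called without BHLHE22 replicate 3, with adjusted p-values of 0.0103 and 0.00176, and MT-RNR2 also with DESeq2 (0.0476), without the low-count filter (0.0368) and with nuclear copies added (0.0493). That library held the least rRNA, as described above. MT-ND5 and MT-CYB had values of -0.22 and -0.21 and were not called, although MT-ND5 was without BHLHE22 replicate 1 (0.0399) and MT-CYB without BHLHE22 replicate 3 (0.0477). MT-ND4, MT-ND4L, MT-CO2, MT-ND2, MT-CO3, MT-ND3 and MT-CO1 were between -0.09 and 0.23 and were not called, with the exception of MT-ND4 by limma-voom (0.0342).

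**Figure D4:**
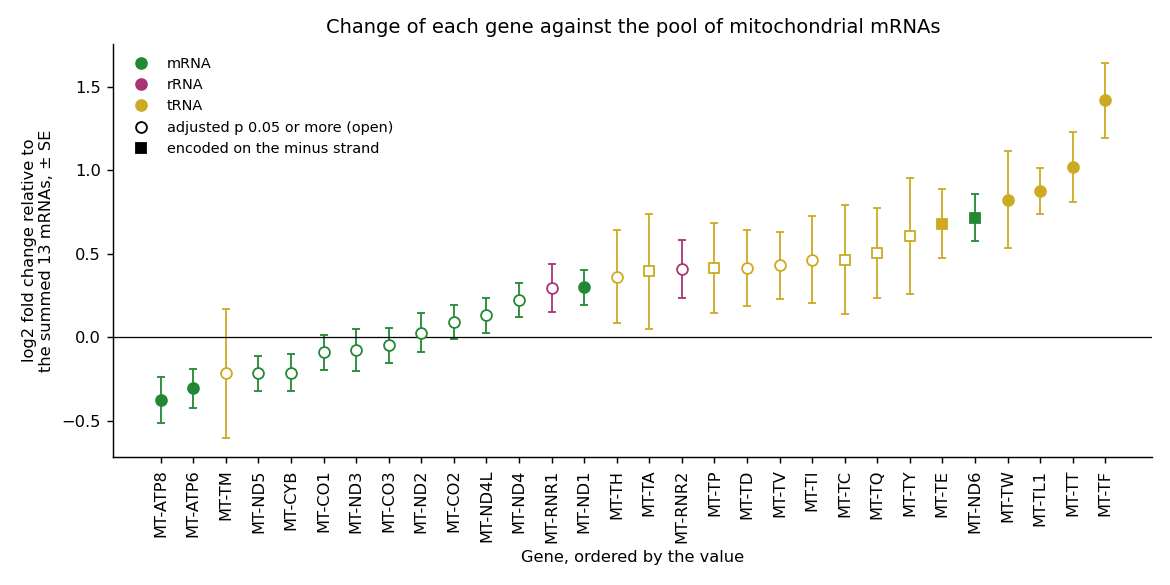
Log2 fold change ± SE of the 30 tested genes when each library is scaled to its summed count of the 13 mitochondrial mRNAs, in order of the value. Filled marks have an adjusted p under 0.05 and squares are on the minus strand. MT-ATP8 and MT-ATP6 are at the low end, and MT-TF, MT-TT, MT-TL1, MT-TW, MT-ND6 and MT-TE at the high end.

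Some reads were counted on copies of mitochondrial DNA in the nuclear genome, and where those reads came from was not tested. The table lists 389 such copies by name, of which 54 had reads and 13 passed the filter. MTND2P28 on chromosome 1 (629640 to 630683), a copy of MT-ND2 with 98.4% identity and 17 mismatches in GENCODE 29, was given reads equal to 35.5% to 46.9% of those of MT-ND2. MTATP6P1, also on chromosome 1 (633696 to 634376; 98.5% identity, 10 mismatches), took 21.4% to 24.5% of the count of MT-ATP6, and MTCO1P12 (631074 to 632616; 98.6% identity) 5.99% to 6.29% of that of MT-CO1. For the other tested copies the figure was at most 1.88%. Of the 13 copies, 11 were called lower in BHLHE22 cells and 0 higher, where 24.3% and 25.1% of all tested genes were (for higher, 0 at an unadjusted p under 0.05, 0 with DESeq2, 0 with limma-voom).

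The copies changed much as the genes they resemble. The log2 fold change was -1.27 for MTATP6P1 and -1.15 for MT-ATP6, -0.92 for MTND2P28 and -0.82 for MT-ND2, and -0.98 for MTCO1P12 and -0.93 for MT-CO1. MTND6P4, a copy of MT-ND6, was at 0.03 and not called. When the counts of copies with at least 90% identity were added to their mitochondrial gene, the log2 fold changes became -0.85 for MT-ND2, -1.17 for MT-ATP6 and -0.93 for MT-CO1, and 12 of 13 mRNAs were again called lower. Levels of MT-ND2 and MT-ATP6 given above are too low to the extent that reads of these genes were counted on the copies, and how the counting placed reads that match both is not given in the sources used here.

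Few nuclear genes for the transcription and copying of mitochondrial DNA were called lower. Of 24 tested, 7 rose (29.2%, near the 25.1% of all tested genes called higher), 1 fell (4.17%, against 24.3%) and 16 did not pass, with a median log2 fold change of 0.20. With unscaled library sizes 11 rose. In that run the median log2 fold change of all tested genes was 0.15, and 18.1% were called lower. TFAM, which packages mitochondrial DNA and starts its transcription, rose, with 53.0 ± 6.4 CPM in vector cells and 90.4 ± 16.0 CPM in BHLHE22 cells (log2 fold change 0.77, SE 0.15, adjusted p = 0.00391). The RNA polymerase POLRMT was at 55.6 ± 3.3 and 62.3 ± 3.0 CPM (log2 fold change 0.16, SE 0.09, adjusted p = 0.157), and was called higher with unscaled library sizes (0.0194). Its partners TFB2M and TEFM had log2 fold changes of 0.14 (SE 0.15) and 0.24 (SE 0.16) and were not called. MTERF3, described as a repressor of mitochondrial transcription, rose by 1.08 (SE 0.17). SSBP1, the single-stranded DNA binding protein of replication, rose by 0.79, and MRPL12, a ribosomal protein also reported to bind POLRMT, by 0.72. The member that fell was the catalytic subunit of the mitochondrial DNA polymerase, POLG (log2 fold change -0.69), named after its value was seen.

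Genes for the processing and stability of mitochondrial RNA were called higher more often than lower. In the processing and modification list 15 of 28 rose (53.6%, against 25.1% of all tested genes), 1 fell (3.57%, against 24.3%) and 12 did not pass (median 0.38). Without vector replicate 1 the count that rose was 9. In that run 6430 of 16385 tested genes were called in either direction, against 7876 of 15945 with all libraries. HSD17B10, a subunit of the enzyme that cuts the 5′ end of mitochondrial tRNAs, rose, with 29.6 ± 1.6 against 60.2 ± 3.1 CPM (log2 fold change 1.02, SE 0.09, adjusted p = 0.000228). MRM2, a methyltransferase of the large mitochondrial rRNA, rose by 1.10 and PUS1, a pseudouridine synthase of tRNAs, by 0.57. In the stability and decay list 9 of 15 rose (60%, against the same 25.1%), 1 fell (6.67%, against 24.3%) and 5 did not pass (median 0.50). PNPT1, the polynucleotide phosphorylase of the mitochondrial RNA degradosome, rose 2.89-fold (45.3 ± 6.8 against 131 ± 7 CPM; log2 fold change 1.53, SE 0.12, adjusted p = 0.000134).

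LRPPRC and SLIRP encode the partners of a complex that protects mitochondrial mRNAs. SLIRP rose, with 17.3 ± 3.0 against 36.4 ± 1.7 CPM (log2 fold change 1.07, SE 0.14, adjusted p = 0.000840). LRPPRC stood at 154 ± 9 and 192 ± 18 CPM (log2 fold change 0.32, SE 0.09, adjusted p = 0.0238), a call that ended on leaving out replicate 1 or 2 of vector or replicate 2 or 3 of BHLHE22 (0.0622 to 0.0668). ANGEL2, from the same list, rose by 0.90.

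Regulators of mitochondrial biogenesis were called at about the rate of all tested genes. Of 14 tested, 3 rose (21.4%, against 25.1%), 4 fell (28.6%, against 24.3%) and 7 did not pass (median -0.02), and only 1 rose on leaving out replicate 2 or 3 of either group. Over all genes, 6303 to 7698 were called in either direction in those runs, against 7876 with all libraries. MYC, a growth-promoting transcription factor, rose, with 11.4 ± 1.4 against 103 ± 5 CPM (log2 fold change 3.16, SE 0.12, adjusted p = 6.04e-06). YY1 and GABPA, transcription factors of nuclear respiratory genes, fell. YY1 had 367 ± 18 against 185 ± 5 CPM, a log2 change of -0.99 with an adjusted p of 0.000117. GABPA had 91.5 ± 1.7 against 53.0 ± 5.7 CPM, a log2 change of -0.79 with an adjusted p of 0.000650. PPARGC1A, the coactivator known as PGC-1alpha, was almost absent, with 7, 11 and 3 reads in vector libraries and 0 in each BHLHE22 library, and was not tested.

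Among markers of mitochondrial mass, more were called higher than lower. Of 26 tested, 10 rose (38.5%, against 25.1% of all tested genes), 3 fell (11.5%, against 24.3%) and 13 did not pass (median 0.21), and the count of falls was 1 when vector replicate 1 or BHLHE22 replicate 1 was left out or with unscaled library sizes. Over all tested genes, 19.5%, 22.3% and 18.1% were called lower in those runs, in that order. The matrix chaperonins HSPD1 and HSPE1 rose by 0.83 and 0.86 on the log2 scale, HSPD1 being at 339 ± 32 against 601 ± 39 CPM and HSPE1 at 34.5 ± 3.1 against 62.7 ± 3.9 CPM. SLC25A6, an ADP/ATP carrier of the inner membrane, fell, with 368 ± 32 against 159 ± 5 CPM (log2 fold change -1.21, SE 0.09, adjusted p = 0.000103).

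Nuclear subunits of the complexes that mitochondrial mRNAs help to build were seldom called lower. Of 36 tested complex I genes, 14 rose (38.9%, against 25.1% of all tested genes) and 1 fell (2.78%, against 24.3%; median 0.20). The count that rose was 7 or 8 when any library other than vector replicate 3 was left out. Fewer genes were called over all in those runs, 6303 to 7413 in either direction, against 7876 with all libraries. The 38.9% thus holds only for the fit with all libraries and the one without vector replicate 3. NDUFC1 and NDUFB3, accessory subunits, rose by 0.80 and 0.70, and NDUFS1, a core subunit with iron-sulfur clusters, fell by 0.38. Of 9 complex III genes, 2 rose (22.2%) and 1 fell (11.1%; median 0.01), no more than the 25.1% and 24.3% of all tested genes: UQCRQ and UQCRFS1 rose by 0.52 and 0.35, and the core subunit UQCRC2 fell by 0.43. Of 11 complex IV genes, 3 rose (27.3%, near that share) and 0 fell (0 lower at an unadjusted p under 0.05, 0 with DESeq2, 0 with limma-voom; median 0.10). The risers were COX8A, COX5A and NDUFA4, with 0.45, 0.41 and 0.47. With unscaled library sizes 5 rose, in a run where the median of all tested genes was 0.15.

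Of the 18 nuclear genes of complex V, 11 rose (61.1%, against 25.1% of all tested genes) and 1 fell (5.56%, against 24.3%; median 0.30). MT-ATP6 and MT-ATP8 fell to 45.0% and 42.8% of the vector level. The count that fell was 2 without vector replicate 2, and 0 with unscaled library sizes or on leaving out replicate 2 or 3 of BHLHE22. Over all tested genes, 19.9% were called lower without vector replicate 2 and 18.1% with unscaled library sizes. Without BHLHE22 replicate 2 and 3 these shares were 18.7% and 20.2%. ATP5G3, a gene of the membrane ring, rose, with 86.4 ± 6.9 against 138 ± 9 CPM (log2 fold change 0.68, SE 0.09, adjusted p = 0.000965). ATP5J2 and ATP5J, subunits of the membrane part and the stalk, rose by 0.43 and 0.40. Complex II, which has no mitochondrially encoded subunit, had 1 of 4 genes higher and 1 lower (median -0.02). That is 25% each way, near the 25.1% and 24.3% of all tested genes. SDHC fell by 0.77, and SDHD rose by 0.39, a call that ended on leaving out replicate 1 or 2 of vector or replicate 2 or 3 of BHLHE22 (adjusted p = 0.0550 to 0.103).

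**Figure D5:**
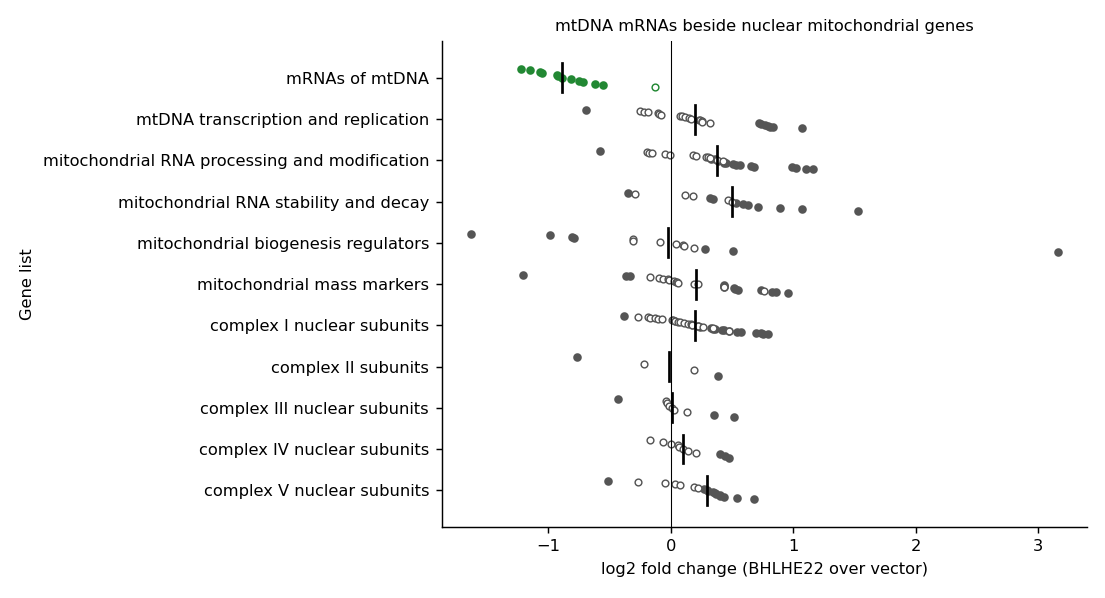
Log2 fold change (BHLHE22 over vector) of the 13 mRNAs of mitochondrial DNA (green) and of each tested gene in 10 lists of nuclear genes (grey); filled marks have an adjusted p under 0.05 and black lines are medians. The mitochondrial mRNAs have a median of -0.89, and the medians of the nuclear lists lie between -0.02 and 0.50.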

How the data were processed

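Whole-number read counts per Ensembl gene were deposited by the authors in 1 table for 6 libraries, with FPKM values deposited by the authors beside them. Per the submitters' processing notes, CASAVA 1.8, HISAT2 2.1.0, StringTie 1.3.4b and edgeR were used with GRCh38 (hg38). What each tool did, and with which counting options, is not given in the sources used here. Columns headed control were taken as vector libraries. Groups were compared with the quasi-likelihood F-test of edgeR 4.0.16 in R 4.3.3 (filterByExpr, TMM scaling, robust dispersions, group as the only term, 2-sided) on all genes, with Benjamini-Hochberg adjustment over 15945 tested genes and calls at an adjusted p under 0.05. CPM are counts over the scaled library size, given as mean ± SD. The SE is the size of the log2 fold change over the square root of F. A second fit used the summed mitochondrial mRNA counts as library size. Alternatives included DESeq2 1.42.0 and limma-voom (limma 3.58.1), other scalings and filters, and leaving out each library. Copies were matched with blastn 2.17.0 to GENCODE 29 transcripts. Named nuclear genes are the 3 called members of each list with the smallest p, plus 8 fixed regulators. Members and lists were chosen with earlier results of these data known. On data simulated for this comparison (5 draws, 15945 genes), 13.9% of 1.5-fold and 88.1% of 3-fold changes were called, and 12.4% of calls were false. Only a small part of the genes was changed in each draw, while 49.4% were called in the real comparison. These rates therefore need not carry over to the real calls.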

Additional observations from a re-analysis of the deposited data

How the results depend on the processing

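The 12 mRNAs called lower stayed 12 under every alternative run. With unscaled library sizes, 1 rRNA was called lower in place of 2, and the median log2 fold change was -0.74 for mRNAs and -0.22 for tRNAs. Without the low-count filter 1 tRNA was lower. The replicate numbers did not pair the libraries (correlations of same-numbered deviations 0.01, -0.02 and 0.02); with them as a replicate block 1 tRNA (MT-TV, adjusted p = 0.0399) was lower, 0 members were higher (MT-TF, adjusted p = 0.0637), and 0 were lower against the mRNA pool (MT-ATP8 0.0614, MT-ATP6 0.108). The block also ended the calls of MT-ND1 against the pool (0.107) and of SDHD (0.0537), and left 1 biogenesis regulator higher. Leaving out each library gave 1 to 2 rRNAs and 0 to 3 tRNAs called lower, 0 to 1 members higher, and 0 to 3 lower against the pool. Over all tested genes, 18.7% to 23% were called lower in the leave-one-out runs scaled as in the main fit. Class medians then ranged from -0.95 to -0.78 (mRNA), -0.61 to -0.38 (rRNA) and -0.46 to -0.24 (tRNA). Against the pool 5 to 10 members were then higher. With all libraries it was 7 members, beside 70.1% of all tested genes, and that share is not given here for the leave-one-out runs. The cause of these shifts was not tested. Low counts limit what can be said of most tRNAs.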
